A study of Mus musculus with 10 samples.

Results

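Collagen chain genes were compared between papillary and anaplastic mouse thyroid carcinomas. Members were the probe sets with a single platform gene symbol made of Col, a type number, the letter a and a chain number, with the probe set of the highest mean over the 10 arrays kept for each gene. This gave 44 genes, from 46 probe sets, among 19938 genes in all: 11 fibrillar chains, 6 basement membrane chains of type IV, 9 chains of the FACIT family (fibril-associated collagens with interrupted helices) and 18 others. The 5 papillary tumours (PTC) were labelled TPOCreER; BrafV600E, and the 5 anaplastic tumours (ATC) were labelled TPOCreER; BrafV600E; p53 -/-. All mice were of a mixed C57BL/6;129SvJae strain, and ages and doses are not given in the labels. TPOCreER is a tamoxifen-inducible Cre recombinase under the thyroid peroxidase promoter, so the activated Braf allele is switched on in thyroid follicular cells. The labels do not say in which cells p53 was lost. Tumour type and p53 genotype changed together and cannot be told apart, and the level of the deleted gene is not analysed here. Total RNA of each tumour piece was hybridised to 1 Affymetrix whole-transcript array. The labels name biological replicates without saying whether each came from its own animal, so p-values measure the spread between these tumours.

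Collagens are secreted proteins in which chains with a repeated glycine pattern wind into a helix of intertwined chains. Fibrillar collagens (types I, II, III, V, XI, XXIV and XXVII) form the ropes of connective tissue and are mostly made by fibroblasts, type IV forms the sheet under epithelia and around vessels, and FACIT chains sit on the surface of fibrils. In thyroid tissue, type IV surrounds each follicle and its capillaries, and fibrillar collagen is deposited by the stroma of carcinomas.

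Levels are on a log2 intensity scale, and every difference subtracts the PTC mean from the ATC mean. A gene counted as called where limma's p, adjusted by the Benjamini-Hochberg method across the 19938 genes, was under 0.05. The error of a mean is the SD of its 5 tumours, a number that limits the precision. Array medians ran from 7.25 to 7.34, and ATC replicate 5 stood apart with the widest quartiles (6.02 and 8.72) and the lowest array weight (0.38). Thyroglobulin, Tg, the defining product of the follicle, was at 12.31 ± 0.65 in PTC and at 7.17, 12.0, 6.84, 11.48 and 10.23 in the ATC tumours, so ATC replicates 1 and 3 were low in it. Detection above background is not given, so a small difference of a dim chain can be compressed.

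Of the 44 collagen genes, 9 were lower in ATC, 1 was higher and 34 were not called. The lower calls made up 20.5% of the members against 9.72% of all genes tested, and the higher call 2.27% against 11.5%. In either direction the share was 22.7%, close to the 21.2% of all genes. The 9 that fell were all 6 type IV chains with Col12a1, Col24a1 and Col15a1, and the 1 that rose was Col18a1. The median difference was −0.089 over the collagen genes and −0.018 over all genes, and 35 of the 44 differences were below 0. For 8 members all ATC values lay below all PTC values, and for 0 all lay above, against 7.74% and 9.13% of all genes (16.9% in either direction). The median absolute difference was 0.15 over the collagen genes and 0.14 over all genes. Over all 10 tumours, 20 of the 44 chains spanned less than 0.5 log2 units and 8 spanned 1 or more.

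**Figure D1:**
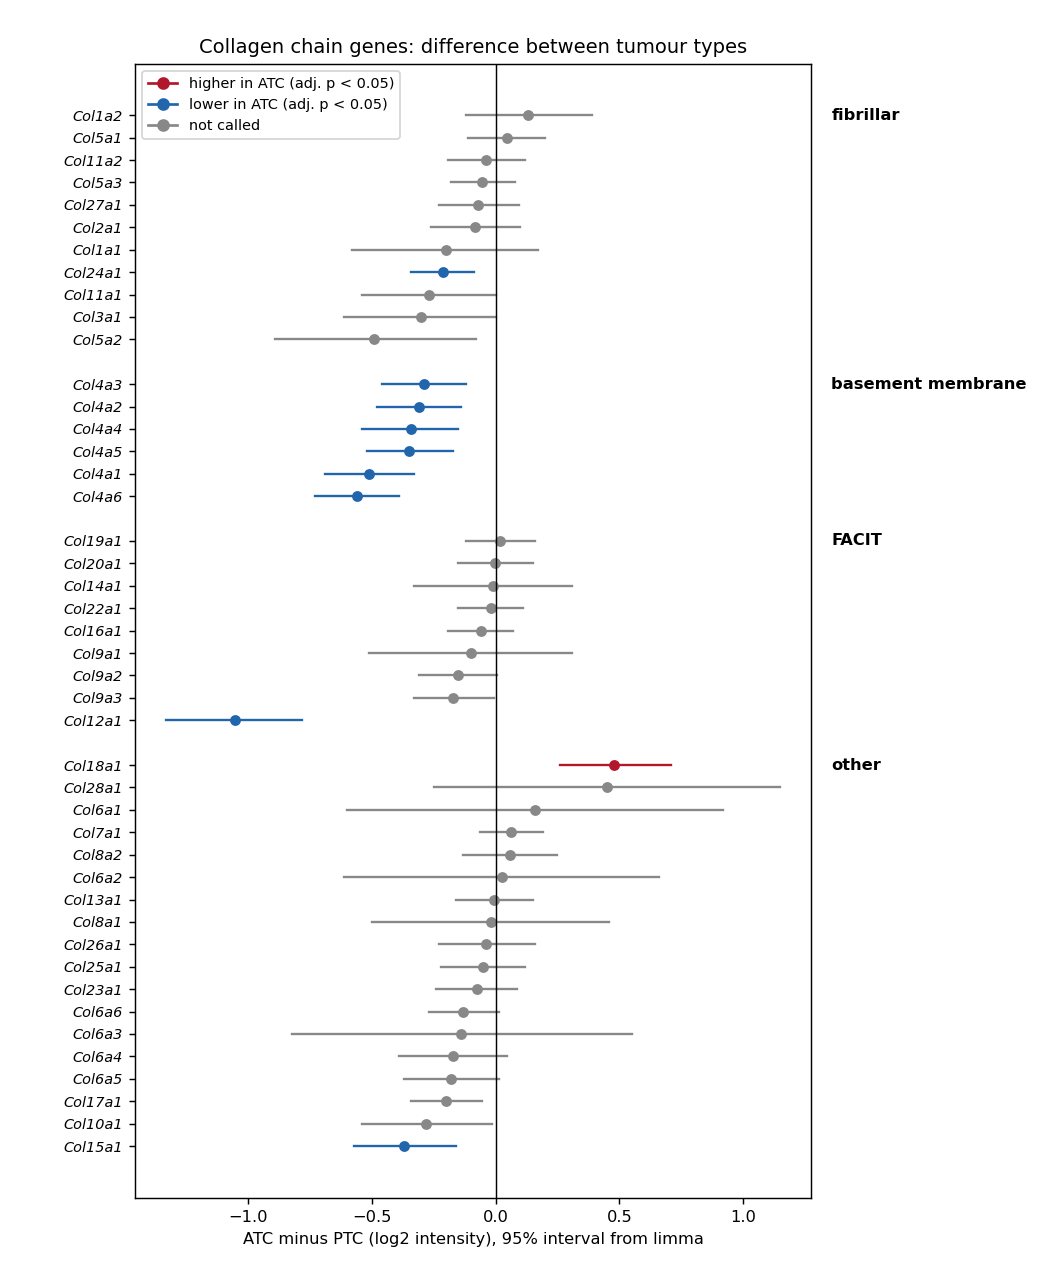
ATC minus PTC difference in log2 intensity (x axis) with its 95% interval from limma for each of the 44 collagen genes (y axis), by class, with 5 tumours per group. All 6 basement membrane chains of type IV lie left of 0 between −0.56 and −0.29. Col12a1 stands alone at −1.05, and Col18a1 at 0.48 is the only chain called higher.

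The basement membrane chains of type IV fell together. All 6 type IV genes were lower in ATC, by 0.29 to 0.56 log2 units with a median of −0.34, and for 5 of the 6 the groups did not overlap. Type IV molecules are built from Col4a1 and Col4a2 in nearly every basement membrane, and from Col4a3, Col4a4, Col4a5 and Col4a6 in specialised ones such as those of kidney and smooth muscle. The genes lie as neighbouring pairs: Col4a1 with Col4a2 on chromosome 8, Col4a3 with Col4a4 on chromosome 1, and Col4a5 with Col4a6 on the X chromosome. The RefSeq promoter table (build GRCm38.p6) held windows for 35 of the 44 genes. In it the starts of Col4a1 and Col4a2 were 21 bases apart and those of Col4a5 and Col4a6 1343 bases apart, each pair on opposite strands.

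The sequence before each start of the X-linked pair is shown because all type IV genes fell and this is the pair whose gene models do not overlap in the RefSeq gene table. Col18a1, the only chain that rose, is shown beside it. The Col4a5 piece is chrX:141475169-141475369 on the plus strand, the Col4a6 piece chrX:141474096-141474326 on the minus strand, and the Col18a1 piece chr10:77166531-77166780 on the minus strand (RefSeq, GRCm38.p6). Each is written 5′ to 3′ and begins 250 bases before the start, and capitals mark matches to a CCAAT box or a GC box.
Col4a5: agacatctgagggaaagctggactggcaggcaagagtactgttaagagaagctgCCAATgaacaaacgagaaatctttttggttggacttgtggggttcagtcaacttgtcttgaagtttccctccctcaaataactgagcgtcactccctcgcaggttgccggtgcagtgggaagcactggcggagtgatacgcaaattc
Col4a6: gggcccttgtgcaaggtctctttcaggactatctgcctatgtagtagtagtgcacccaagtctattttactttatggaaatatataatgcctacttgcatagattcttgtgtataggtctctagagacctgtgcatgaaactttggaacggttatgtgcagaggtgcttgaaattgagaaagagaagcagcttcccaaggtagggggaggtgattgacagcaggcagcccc
Col18a1: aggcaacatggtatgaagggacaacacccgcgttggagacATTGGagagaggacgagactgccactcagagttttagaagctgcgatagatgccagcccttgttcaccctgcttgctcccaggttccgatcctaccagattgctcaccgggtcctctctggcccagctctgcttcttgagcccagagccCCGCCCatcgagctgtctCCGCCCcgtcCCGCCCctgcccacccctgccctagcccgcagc
The CCAAT box was searched as CCAAT on both strands. The GC box was searched as GGGCGG, the TATA box as TATAAA and the AP-1 element as TGANTCA, likewise on both strands. The 201 bases of Col4a5 held 1 CCAAT, which 28.6% of all 32851 windows of that length hold. The 231 bases of Col4a6 held 0 matches to any of the motifs, where 32.3% of windows of that length hold CCAAT and 30.0% a GC box. The 250 bases of Col18a1 held 3 GC boxes and 1 CCAAT, present in 32.7% and 33.8% of windows, and 0 matches to the TATA box or the AP-1 element. The table's second Col18a1 window, inside the gene at chr10:77113706-77113955, held 0 matches to any of the motifs. No matches overlapped. GC content was 49.8%, 45.5% and 62.0% in this order, against medians of 51.7%, 51.9% and 52.4% for all windows of these lengths. A match is a description of these letters only.

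Col4a6, a chain of smooth muscle and epithelial basement membranes, had the largest difference of the class. Its level was 7.82, 7.54, 7.49, 7.73 and 7.68 in the PTC tumours and 7.03, 7.06, 7.08, 7.12 and 7.19 in the ATC tumours. The ATC values lay below every array median (7.25 to 7.34), where detection is unknown and a change can be compressed. They lay close together and all below PTC (probe set 10607012, difference −0.56, SE 0.077, 95% interval −0.73 to −0.39, adjusted p = 0.000631 by limma), a 1.47-fold fall. Its X-linked partner Col4a5, the chain mutated in X-linked Alport syndrome, was at 7.73, 7.63, 7.81, 7.78 and 7.88 in PTC and at 7.28, 7.58, 7.41, 7.51 and 7.32 in ATC. Every ATC tumour was below every PTC tumour (difference −0.35, SE 0.078, adjusted p = 0.00923 by limma).

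Col4a1, the most widely made type IV chain, was at 8.40, 8.37, 8.34, 8.25 and 8.43 in PTC and at 7.58, 7.95, 7.82, 7.92 and 7.97 in ATC. The groups did not overlap, and ATC replicate 1 was lowest (probe set 10576973, difference −0.51, SE 0.084, adjusted p = 0.00166 by limma, 1.42-fold). Col4a2, with which it assembles, was at 8.23, 8.16, 8.19, 8.13 and 8.36 in PTC and at 7.70, 7.91, 7.99, 7.93 and 8.0 in ATC, again without overlap (probe set 10570068, difference −0.31, SE 0.077, adjusted p = 0.015 by limma). Col4a3 and Col4a4, which with Col4a5 form the mature basement membrane of the glomerulus, fell by 0.29 (adjusted p = 0.0203 by limma) and 0.34 (adjusted p = 0.019). For Col4a4 the PTC tumours lay between 7.59 and 7.67 and 4 ATC tumours between 7.14 and 7.25, whereas ATC replicate 4 was at 7.62, within the PTC range. All 6 calls held with each array left out in turn.

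**Figure D2:**
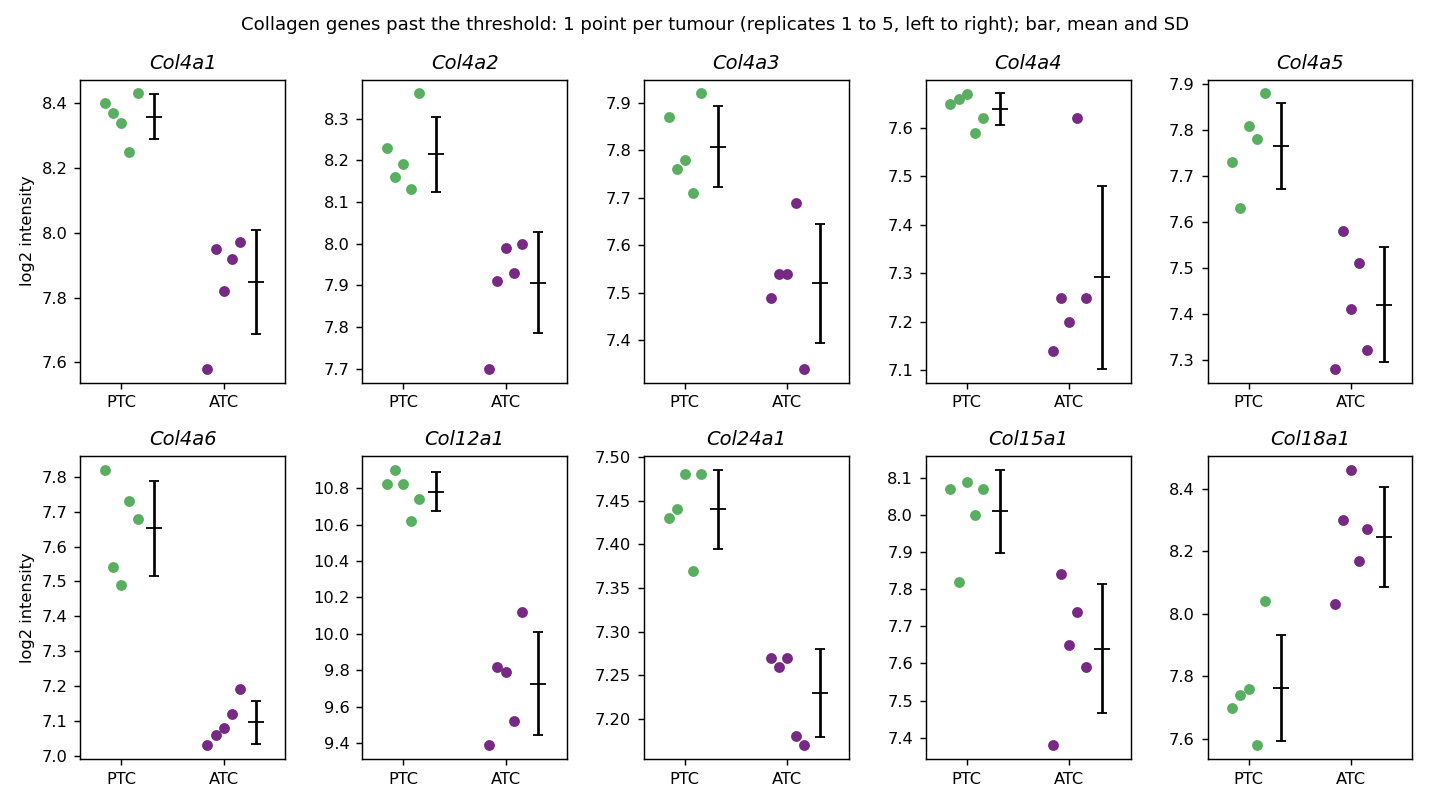
Log2 intensity (y axis) of the 10 called collagen genes in each tumour, 5 PTC and 5 ATC (x axis), with mean and SD; each panel has its own scale. The groups are apart for Col4a1, Col4a2, Col4a3, Col4a5, Col4a6, Col12a1 and Col24a1, while Col4a4, Col15a1 and Col18a1 each have 1 or more tumours within the other group's range.

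Other basement membrane components did not share 1 direction. Of 15 measured laminin, nidogen, perlecan, agrin and associated genes, 3 rose, 4 fell and 8 were not called, with a median of −0.17. The shares that rose and fell both exceeded those of all genes (11.5% and 9.72%). Lamb1, the laminin beta chain of most tissues, rose by 1.78 (SE 0.13, adjusted p = 3.14e-05 by limma) and Nid1, the nidogen that links laminin to type IV collagen, by 1.56 (SE 0.31, adjusted p = 0.00488). Lama3, the alpha chain of the epithelial laminin that anchors keratinocytes, fell by 1.64 (SE 0.16, adjusted p = 0.000125 by limma), and Lamb3, its beta partner, fell by 1.2.

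Basement membranes belong to epithelium, vessels and smooth muscle. Of 7 epithelial markers 5 fell (71.4%, beside 9.72% of all genes) and 0 rose. The list mean ran from 10.76 to 10.93 over the PTC tumours and from 8.24 to 10.05 over the ATC tumours. Epcam, an epithelial adhesion molecule, fell by 2.73 (SE 0.61, adjusted p = 0.00838 by limma). Of 8 endothelial markers 2 fell (beside 9.72% of all genes) and 0 rose, with list means of 8.30 to 8.71 and 8.05 to 8.46. With 1 array left out, 1 fell without PTC replicate 1, 3, 4 or 5 and without ATC replicate 1 or 3, and 4 fell without ATC replicate 2. Pecam1, a junction protein of endothelium, fell by 0.40 with all arrays, but leaving out any 1 PTC array, or ATC replicate 1 or 3, ended the call (limma adjusted p from 0.0603 to 0.117). Of 8 pericyte and smooth muscle markers 1 fell (12.5%, beside 9.72% of all genes; 2 without ATC replicate 2) and 0 rose, with list means of 7.67 to 8.05 and 7.43 to 7.84, and the actin gene Acta2 differed by −0.22 (adjusted p = 0.678). Their part in the type IV result was not tested. In bulk tumour RNA, fewer cells of a type and less RNA per cell cannot be told apart.

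Of 11 fibrillar members 1 fell (9.09%, near the 9.72% of all genes), 0 rose and 10 were not called, with a median of −0.081 and a range of −0.49 to 0.13. The call was Col24a1, a minor fibrillar chain known from developing bone and cornea, which lay between 7.37 and 7.48 in PTC and between 7.17 and 7.27 in ATC without overlap (difference −0.21, SE 0.058, adjusted p = 0.0217 by limma). It was not called without PTC replicate 3 (−0.21, adjusted p = 0.0572), with quantile normalization once more (−0.17, adjusted p = 0.0506) or with arrays centred on the median (−0.17, adjusted p = 0.0596).

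Type I collagen, the main fibril of scar and tumour stroma, is made of Col1a1 and Col1a2. Col1a1 was at 8.98, 8.7, 8.62, 8.74 and 9.22 in PTC and at 8.40, 8.60, 8.38, 8.61 and 9.26 in ATC. The groups overlapped, and ATC replicate 5 was as high as the highest PTC tumour (difference −0.20, 95% interval −0.58 to 0.17, adjusted p = 0.461 by limma, and −0.36 with adjusted p = 0.0727 without that tumour). Col1a2 was at 9.53, 9.34, 9.25, 9.42 and 9.59 in PTC and at 9.37, 9.48, 9.33, 9.78 and 9.84 in ATC. ATC replicates 4 and 5 were above all PTC tumours and the others were within the PTC range (difference 0.13, 95% interval −0.12 to 0.39, adjusted p = 0.476 by limma).

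Col3a1, Col5a2 and Col11a1 were not called, and each lay below the PTC range in 4 of 5 ATC tumours. Col3a1, the fibril chain of vessels and healing wounds, was at 9.15, 8.99, 9.04, 9.09 and 8.98 in PTC and at 8.52, 8.63, 8.64, 8.59 and 9.34 in ATC, with replicate 5 above all PTC tumours. The difference of −0.30 was not called (adjusted p = 0.157 by limma) but was called without ATC replicate 5 (−0.45, adjusted p = 0.00127). Col5a2, a type V chain that seeds type I fibrils, was at 8.38, 8.96, 8.77, 8.40 and 8.64 in PTC and at 7.72, 8.10, 7.91, 8.19 and 8.79 in ATC. Replicate 5 was again the exception (difference −0.49, adjusted p = 0.0893 by limma, and −0.65 with adjusted p = 0.00966 without it). Col11a1, a type XI chain of cartilage fibrils that also appears in tumour stroma, was at 7.88, 8.07, 7.93, 8.02 and 7.99 in PTC and at 7.56, 7.58, 7.72, 8.20 and 7.48 in ATC. Here replicate 4 was the exception (difference −0.27, adjusted p = 0.156 by limma, and −0.39 with adjusted p = 0.00444 without it). The remaining chains, Col2a1, Col5a1, Col5a3, Col11a2 and Col27a1, differed by −0.081 to 0.048.

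Fibroblasts are the main source of fibrillar collagen, and most of their markers fell. Of 12 markers 7 fell (58.3%, beside 9.72% of all genes), 1 rose (8.33%, beside 11.5%, and 2 without ATC replicate 2) and 4 were not called. The median was −0.75, with list means of 10.05 to 10.38 over PTC and 9.11 to 9.97 over ATC. Dpt, a small matrix protein that binds collagen fibrils, fell by 2.35 (SE 0.37, adjusted p = 0.00137 by limma), the fibril proteoglycan gene Lum fell by 2.07 (SE 0.35), and Mfap5, a microfibril protein gene, fell by 1.59 (SE 0.25). The one that rose was S100a4 (1.2), which macrophages also make. Among the receptor genes that define fibroblasts and pericytes, Pdgfra was at 8.96 to 9.11 in PTC and at 10.96, 8.62, 11.14, 9.35 and 11.05 in ATC (difference 1.17, adjusted p = 0.0848 by limma, and 1.57 with adjusted p = 0.0056 without ATC replicate 2), and Pdgfrb differed by −0.044 (adjusted p = 0.928). ATC replicate 5, highest of all tumours in Col1a1, Col1a2 and Col3a1, was also highest in Pdgfrb (9.28) and Thy1 (11.54), which were picked after their values were seen. In the 7 markers that fell the groups did not overlap, so this tumour, like every ATC tumour, was below every PTC tumour in each. Of markers picked likewise, it was the lowest of all tumours in Postn (10.86) and the highest in Fbln2 (9.87). Its list mean (9.97) was the highest of the ATC tumours and below every PTC tumour. Whether fibroblast content bears on the collagen values was not tested.

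Col12a1 was the only FACIT chain called. Of 9 members 1 fell (11.1%, near the 9.72% of all genes), 0 rose and 8 were not called, with a median of −0.057. Col12a1, which coats type I fibrils in tendon, fascia and reactive stroma, was at 10.82, 10.90, 10.82, 10.62 and 10.74 in PTC and at 9.39, 9.82, 9.79, 9.52 and 10.12 in ATC. Every ATC tumour lay below every PTC tumour, departing from the PTC mean by −1.39 to −0.66, and ATC replicate 1 was lowest (probe set 10595211, difference −1.05, SE 0.13, 95% interval −1.33 to −0.78, adjusted p = 0.000321 by limma). This 2.07-fold fall was the only collagen change of at least 1 log2 unit.

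The cartilage FACIT chains Col9a3 and Col9a2 came next. Col9a3 was at 8.33, 8.17, 8.19, 8.11 and 8.15 in PTC and at 7.91, 8.15, 8.09, 8.06 and 7.89 in ATC (difference −0.17, adjusted p = 0.135 by limma). Col9a2 was at 8.30, 8.03, 8.14, 8.11 and 8.20 in PTC and at 7.96, 8.01, 8.09, 8.08 and 7.88 in ATC (difference −0.15, adjusted p = 0.170). The groups overlapped for both. Col9a1, Col14a1, Col16a1, Col19a1, Col20a1 and Col22a1 differed by −0.097 to 0.019. Cartilage of the trachea lies next to the thyroid, and of 9 chondrocyte markers 1 fell (11.1%, near the 9.72% of all genes) and 0 rose. The aggrecan gene Acan differed by −0.13 (adjusted p = 0.360 by limma) and Comp, a matrix protein of cartilage and tendon, fell by 1.16 (SE 0.14, adjusted p = 0.000342 by limma). The chondrocyte list mean was 6.60 to 6.94 in PTC and 6.42 to 6.63 in ATC, and its part was not tested.

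The multiplexins Col15a1 and Col18a1, basement membrane collagens whose terminal pieces restrain vessel growth, moved in opposite directions. Col18a1, the source of endostatin, was at 7.70, 7.74, 7.76, 7.58 and 8.04 in PTC and at 8.03, 8.30, 8.46, 8.17 and 8.27 in ATC. PTC replicate 5 reached the lowest ATC tumour, and all other ATC values were above PTC (probe set 10370259, difference 0.48, SE 0.10, adjusted p = 0.00656 by limma), a 1.4-fold rise. Col15a1, which stabilises capillaries and muscle, was at 8.07, 7.82, 8.09, 8.0 and 8.07 in PTC and at 7.38, 7.84, 7.65, 7.74 and 7.59 in ATC. ATC replicate 2 lay within the PTC range and the others below it (probe set 10504775, difference −0.37, SE 0.093, adjusted p = 0.016 by limma). Col18a1 has 2 annotated starts in the promoter table and 1 probe set here. Which of their transcripts the probe set reads is not given.

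Type VI collagen forms a beaded microfibril around cells, nerves and fat. Its main chains Col6a1, Col6a2 and Col6a3 were spread more widely in ATC (SD 0.74 to 0.9) than in PTC (SD 0.17 to 0.21). Col6a1 was at 8.79, 8.37, 8.35, 8.52 and 8.52 in PTC and at 7.97, 8.40, 8.09, 8.68 and 10.19 in ATC. Col6a2, its neighbour on chromosome 10, was at 8.53, 8.16, 8.22, 8.41 and 8.50 in PTC and at 7.89, 8.13, 7.92, 8.34 and 9.68 in ATC. ATC replicate 5 exceeded the PTC mean by 1.68 and 1.31, while ATC replicates 1 and 3 were below the PTC range for both genes. Neither gene was called (differences 0.16 and 0.027, adjusted p = 0.803 and 0.963 by limma), and without ATC replicate 5 the differences were −0.22 and −0.29 (adjusted p = 0.345 and 0.107). Col6a3, the longest of these chains, was at 9.11, 8.87, 8.68, 9.16 and 9.14 in PTC and at 8.75, 9.68, 8.25, 7.94 and 9.64 in ATC. It was high in ATC replicates 2 and 5 and low in replicates 3 and 4 (SD 0.79 in ATC against 0.21 in PTC, difference −0.14, adjusted p = 0.807 by limma). The other chains that can take its place, Col6a4, Col6a5 and Col6a6, differed by −0.18 to −0.13, were not called and had SDs of 0.064 to 0.16 in ATC.

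Col28a1, a chain related to type VI and known from peripheral nerve, was at 7.14, 7.25, 7.37, 7.38 and 7.22 in PTC and at 7.26, 7.37, 7.37, 7.41 and 9.21 in ATC. Only ATC replicate 5 stood out, by 1.94 above the PTC mean (difference 0.45, adjusted p = 0.372 by limma, and 0.079 without that tumour). Of 4 Schwann cell markers 1 fell (2 without PTC replicate 2 or ATC replicate 4) and 0 rose. Of all genes, 9.72% fell and 11.5% rose. Sox10, which defines these cells, was at 7.31 in ATC replicate 5 against 7.33 to 7.62 in the other ATC tumours. In that tumour S100b (6.45) was also lowest of the ATC tumours, whereas Mbp (7.44) and Pmp22 (11.85) lay within the range of the others. The list mean was 8.27 to 8.86 in PTC and 8.14 to 8.40 in ATC. Their part in the Col28a1 value was not tested.

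**Figure D3:**
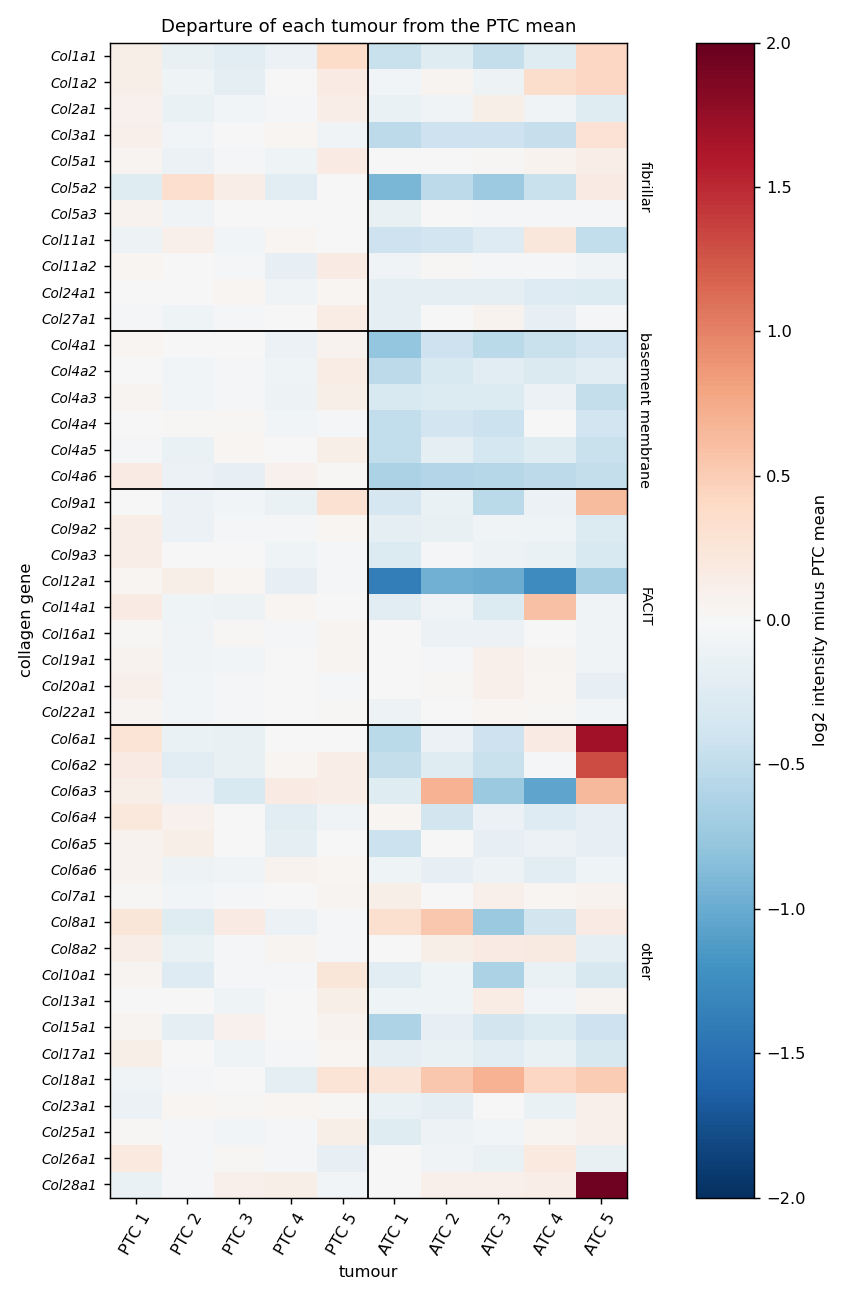
Log2 intensity of each collagen gene (y axis) in each tumour (x axis) minus the PTC mean of that gene, as colour from −2 to 2. Type IV chains and Col12a1 are blue across the ATC columns, except Col4a4 in ATC replicate 4 (−0.013), and ATC replicate 5 holds the darkest red cells, Col28a1 (1.94), Col6a1 (1.68) and Col6a2 (1.31).

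No membrane-bound or anchoring collagen was called. Col17a1, the hemidesmosome collagen of basal epithelium, was at 7.56, 7.44, 7.37, 7.40 and 7.49 in PTC and at 7.26, 7.32, 7.23, 7.31 and 7.13 in ATC. The groups did not overlap, and the difference of −0.20 just missed the threshold (adjusted p = 0.0531 by limma); with genes above the 25th percentile of means alone it was called (−0.20, adjusted p = 0.0457). Of 5 hemidesmosome partners 2 rose and 1 fell, where 11.5% of all genes rose and 9.72% fell. With 1 array left out, 1 rose without PTC replicate 1, 2, 3 or 4 and without ATC replicate 1 or 3, 3 rose without ATC replicate 4, and 0 fell without PTC replicate 1, 3, 4 or 5 and without ATC replicate 3, 4 or 5. Dst, a plakin that ties keratin to the hemidesmosome, rose by 0.88 (SE 0.14, adjusted p = 0.00125). Col7a1, the anchoring fibril of skin, and the transmembrane chains Col13a1, Col23a1 and Col25a1 differed by −0.075 to 0.063. The short network chains Col8a1, Col8a2 and Col10a1 differed by −0.02, 0.057 and −0.28 and were not called, and Col26a1 differed by −0.039. Col8a1, a chain of vessel walls and Descemet's membrane, spanned 9.25 to 10.55 in ATC against 9.76 to 10.24 in PTC.

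Chains of 1 collagen type assemble together, so the ratio of 10 pairs of chains within each array was compared between the groups. By exact two-sided permutation tests 3 pairs had an unadjusted p under 0.05, and 0 passed after adjustment over the 10 pairs. The smallest p the design allows is 0.00794, and 1 pair alone at that p gets an adjusted p of 0.0794, so no single pair could pass. The Col4a1 to Col4a2 ratio was 0.17, 0.21, 0.15, 0.12 and 0.064 in PTC and −0.12, 0.032, −0.17, −0.0053 and −0.027 in ATC. It was lower in every ATC tumour (difference −0.20, SE 0.044, exact permutation p = 0.00794, adjusted p = 0.0794). The Col1a1 to Col1a2 ratio differed by −0.34 (SE 0.11, exact permutation p = 0.0317, adjusted p = 0.106) and that of Col5a1 to Col5a2 by 0.53 (SE 0.21, exact permutation p = 0.0317, adjusted p = 0.106). Without ATC replicate 5, Col1a1 to Col1a2 (−0.42) and Col4a1 to Col4a2 (−0.21) passed, and without ATC replicate 4, Col4a1 to Col4a2 (−0.21) and Col11a1 to Col11a2 (−0.35) passed, each at an exact permutation adjusted p of 0.0397. Col4a1 to Col4a2 already had the smallest possible p with all arrays, so its passing there rests on another pair also reaching the smallest p. With all arrays the Col11a1 to Col11a2 ratio differed by −0.23 (exact permutation p = 0.151, adjusted p = 0.291). Col4a5 to Col4a6 differed by 0.21 (exact permutation p = 0.0556, adjusted p = 0.139), and the other 5 pairs had adjusted p-values of 0.291 to 0.849. A ratio across probe sets carries no absolute level, so these values show unequal change only.

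**Figure D4:**
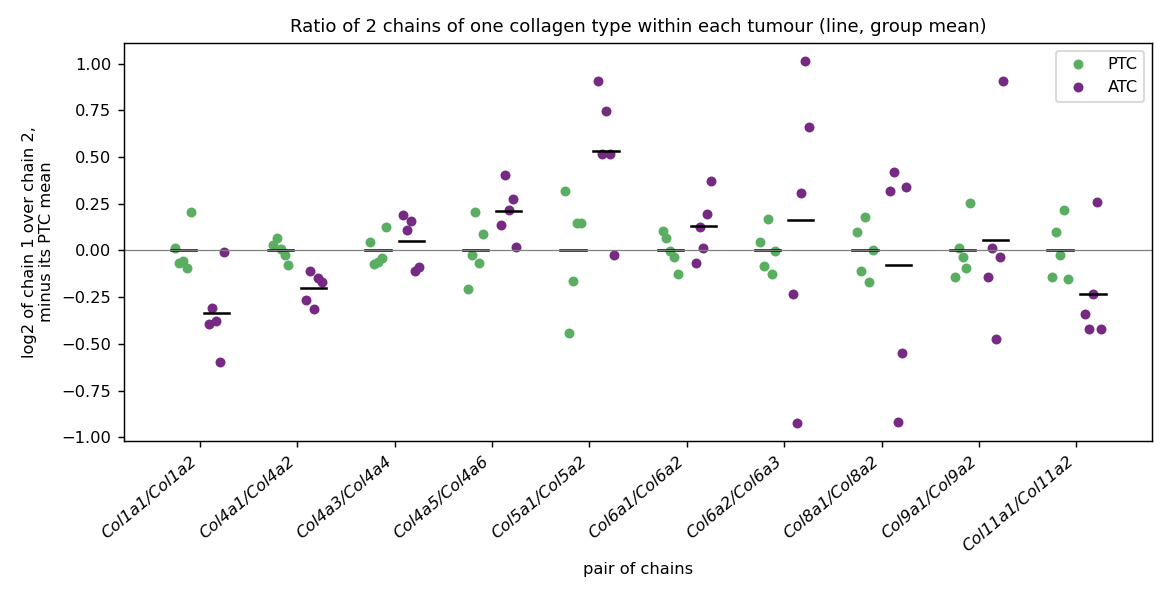
Log2 ratio of the first to the second chain of each pair (x axis) in each tumour, minus the PTC mean of that ratio (y axis), with 5 PTC and 5 ATC tumours and lines at the group means. The groups are apart for Col4a1/Col4a2, and the ATC tumours scatter widely for Col6a2/Col6a3 and Col8a1/Col8a2.

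Genes that make, bind and break down collagen moved in both directions. Of 29 measured genes of procollagen modification and processing, 6 rose (20.7%, beside 11.5% of all genes), 4 fell (13.8%, beside 9.72%) and 19 were not called. The median was −0.0065. P3h1 (0.35, adjusted p = 0.0454 by limma) lost its higher call without any 1 PTC array and without ATC replicate 1 or 5. P4hb and P3h3 were called lower without ATC replicate 5. The collagen chaperone gene Serpinh1 differed by −0.0065 (adjusted p = 0.985 by limma), the lysyl oxidase gene Lox by −0.23 (adjusted p = 0.552) and the lysyl hydroxylase gene Plod2 by −0.21 (adjusted p = 0.161; −0.28 and adjusted p = 0.0496 with quantile normalization once more). Of the prolyl hydroxylase subunits, P4ha2 fell by 1.06 (SE 0.17, adjusted p = 0.00153 by limma), and P4ha1 differed by 0.40 (adjusted p = 0.0798; 0.48 for each and adjusted p = 0.0421 and 0.0454 without PTC replicate 2 or ATC replicate 1). Tll1, a protease of the procollagen C-terminus, fell by 1.48 (SE 0.24, adjusted p = 0.00163 by limma), whereas Pcolce2, an enhancer of that cleavage, rose by 1.42 (SE 0.29, adjusted p = 0.00519).

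Of 9 measured collagen receptors, 3 rose (33.3%, beside 11.5% of all genes), 3 fell (33.3%, beside 9.72%) and 3 were not called, with a median of −0.12. With 1 array left out, 2 rose in the absence of PTC replicate 2, 3 or 4 and in that of ATC replicate 4 or 5, where the collagen uptake receptor gene Mrc2 lost its call, and 2 fell without PTC replicate 1 or 2 or ATC replicate 5, where the integrin chain gene Itga2 lost its call. Itga1, an integrin chain that prefers type IV collagen, was at 9.37, 9.48, 9.7, 9.37 and 9.62 in PTC and at 8.17, 8.83, 7.80, 8.48 and 8.95 in ATC. It fell in every ATC tumour (difference −1.06, SE 0.19, adjusted p = 0.00289 by limma). The kinase receptor for fibrillar collagen Ddr2 rose by 1.02 (SE 0.23, adjusted p = 0.00821 by limma), and Ddr1, its epithelial relative, differed by −0.41 (adjusted p = 0.0586; −0.48 and adjusted p = 0.046 without PTC replicate 3). Lair1, an inhibitory collagen receptor of leukocytes, rose by 0.75 (SE 0.14, adjusted p = 0.00404 by limma). All 7 macrophage markers rose beside it, where 11.5% of all genes rose (list mean 9.25 to 9.71 in PTC and 10.46 to 11.2 in ATC).

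Of 8 collagen-degrading enzymes 1 rose (12.5%, near the 11.5% of all genes, and 2 without ATC replicate 1). None fell (1 without ATC replicate 5), and the median was 0.35. Ctsl, a lysosomal cathepsin, rose by 0.66 (SE 0.12, adjusted p = 0.00295 by limma). The gelatinase gene Mmp2, whose product cleaves type IV collagen, differed by −0.48 (adjusted p = 0.0937 by limma; −0.62 and adjusted p = 0.0214 without ATC replicate 5), and the membrane collagenase gene Mmp14 by 0.28 (adjusted p = 0.249). Mmp9, another gelatinase, was at 6.82, 7.35, 7.56, 9.61 and 9.25 in the ATC tumours and at 6.64 to 8.27 in PTC, high in ATC replicates 4 and 5 (difference 0.70, adjusted p = 0.399 by limma).

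**Figure D5:**
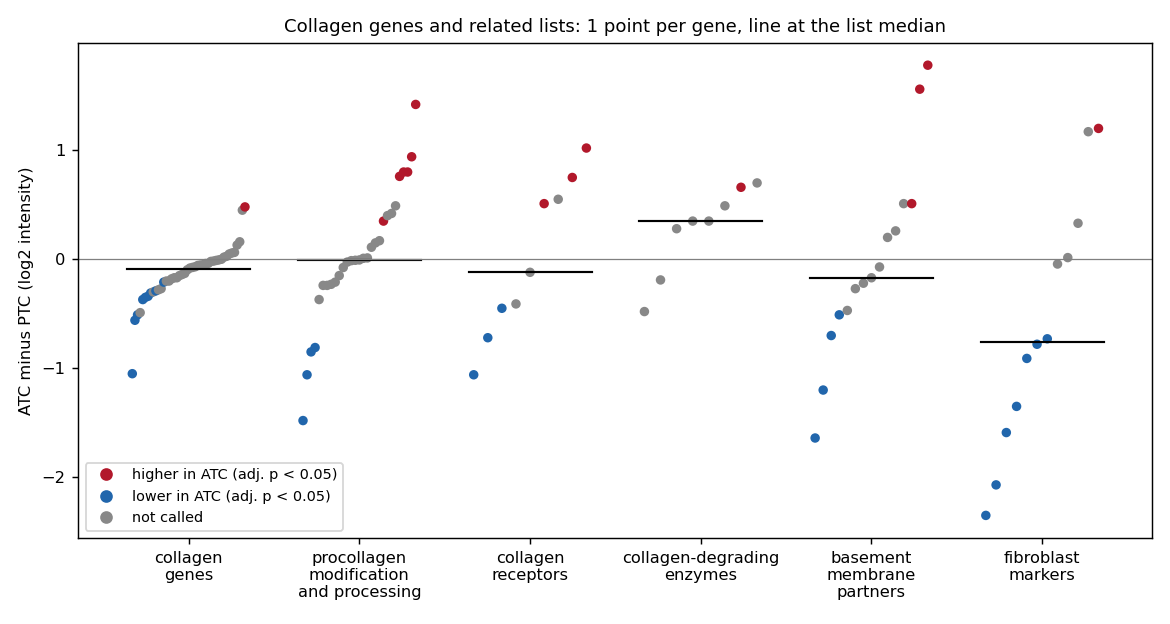
ATC minus PTC difference in log2 intensity (y axis) of each gene of the collagen set and of 5 related lists (x axis), with the list median as a line. The collagen genes span −1.05 to 0.48, less than the fibroblast markers, which reach −2.35, and the basement membrane partners, which reach 1.78.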

How the data were processed

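Labelled RNA of 10 tumours was hybridised to 1 array each. The authors deposited 1 table of 35556 probe sets with no missing value, read as normalized log2 intensities from its range (2.79 to 14.15); no source used here gives their scale, background correction, normalization or genome build. Affymetrix Power Tools and limma appear in the submitters' processing notes, without a role. Groups and replicate numbers came from the titles.

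Of the probe sets, 21789 had 1 platform symbol, giving 19938 genes, each represented by its probe set of highest mean; Col6a5 and Col6a6 had 2 probe sets. Current symbols came from the RefSeq gene table of GRCm38.p6. The group difference was estimated by lmFit and eBayes (limma 3.58.1, R 4.3.3; statmod 1.5.0 loaded) without covariates or filter, and called at an adjusted p of 0.05. The procedure was tested on simulated data. Of 164 genes in 5 related and 12 marker lists, 151 were measured. Col21a1, listed as FACIT, is not analysed here. Members and lists were chosen with earlier results of these data known.

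Named with values in every tumour were the 3 members of each class with the largest absolute difference and 10 chains named in any case; of each other list, genes were taken from the 3 largest differences and a few classical members. Chain ratios were compared by exact permutation. Alternatives were a replicate block, other probe set choices, filters, scalings, variance models, array weights and each array left out. Tables and figures were made in Python 3.11.15 (matplotlib 3.10.9, pandas 2.3.3, numpy 2.4.6).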

Additional observations from a re-analysis of the deposited data

Results flagged for a closer look

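Among 88 sets of 5 values (44 collagen genes in each group), 9 had 1 tumour separated from the other 4 by more than 0.71 of the whole range, Dixon's 95% critical value; chance gives about 1 in 20. At ATC replicate 5, 4 were high: Col1a1 at 9.26 (others 8.38 to 8.61), Col3a1 at 9.34 (others 8.52 to 8.64), Col6a2 at 9.68 (others 7.89 to 8.34) and Col28a1 at 9.21 (others 7.26 to 7.41). At ATC replicate 4, Col4a4 was high at 7.62 (others 7.14 to 7.25) and Col14a1, a FACIT chain of tendon and skin, was high at 9.7 (others 8.85 to 9.05). At ATC replicate 1, Col4a2 was low at 7.70 (others 7.91 to 8.0) and Col5a3, a minor type V chain, was low at 7.29 (others 7.40 to 7.43). In PTC, only Col23a1 stood out, at 7.35 in replicate 1 (others 7.48 to 7.51).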

How the results depend on the processing

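Over 19 other settings, 10 of which leave out an array, 7 of the 10 collagen calls held wherever the gene was tested, and 0 calls reversed. The count of collagen genes lower in ATC was 9, and 8 to 11 with 1 array left out; that of higher genes was 1 throughout. With the replicate number as a block, 6 were lower and 1 higher: Col4a3 (−0.29, adjusted p = 0.0731), Col15a1 (−0.37, adjusted p = 0.055) and Col24a1 (−0.21, adjusted p = 0.0675) were not called, which left 5 type IV genes, 0 fibrillar and 0 other genes lower. There was little sign that the numbers pair the tumours: same-numbered arrays deviated together with correlations of −0.09 to 0.12, and 2 of 10 arrays correlated best with their own number. Such correlations cannot exclude a pairing. The fibrillar count of 1 was 0 with genes above the median of means (where Col24a1 was not tested), quantile normalization once more or arrays centred on the median, 3 with array weights, and 0 to 3 with 1 array left out. The count of other collagen genes lower was 2 with genes above the 25th percentile of means. Ratios of chain pairs that passed numbered 0, and 0 to 2 with 1 array left out; by sign flips of the 5 number-matched differences, the replicate block allows no p below 0.0625, so its 0 says nothing. For 12 uncalled collagen genes the sign of the difference changed in some setting. Of the members, 14 had a mean below the median of all genes (7.5), where a change can be compressed. The called genes among them were Col4a4, Col4a6 and Col24a1.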

Other observations

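Markers of tissues next to the thyroid were also measured. Of 9 skeletal muscle markers 0 were called, with list means of 6.69 to 8.73 over PTC and 6.96 to 8.18 over ATC; of 5 adipocyte markers 0 were called (6.89 to 7.34 and 6.81 to 7.10). Of 5 osteoblast markers 1 fell (beside 9.72% of all genes) and 0 rose, and 2 fell without ATC replicate 2. The osteoblast list means were 6.41 to 6.61 over PTC and 6.2 to 6.41 over ATC. Of 3 parathyroid markers 0 were called (6.17 to 10.48 and 5.98 to 9.44). Of 8 thyroid follicular markers 2 fell (beside 9.72% of all genes) and 0 rose, with list means of 8.24 to 9.38 and 6.84 to 8.59. With 1 array left out 0 to 4 fell: 4 in the absence of ATC replicate 2, 3 in that of ATC replicate 4, 1 in that of PTC replicate 3 or ATC replicate 5, and 0 in that of PTC replicate 1, 4 or 5 and in that of ATC replicate 1 or 3.

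Collagen levels varied more among the ATC tumours: 37 of the 44 genes (84.1%) had the larger SD in ATC, against 68.6% of all genes. ATC replicate 1 was the lowest ATC tumour for 20 members (45.5%, against 16.8% of all genes), and ATC replicate 5 the highest for 16 (36.4%, against 22.4%). Probe sets of the same gene differed for Col6a5 (−0.18 and −0.37) and Col6a6 (−0.13 and 0.026).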
